A study of Caenorhabditis elegans with 6 samples.

Results

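The genes described here are the lysozyme genes lys and ilys and the saposin-like genes spp of Caenorhabditis elegans, taken as every gene whose symbol is one of these names with a number and that has at least 1 probe set naming it alone. There were 34 of them among 17138 genes: 10 lys, 6 ilys and 18 spp genes. Each was represented by the probe set that was brightest over all arrays. The study hybridised messenger RNA enriched for A-class motor neurons of L2 larvae to 6 one-colour arrays, 3 from unc-37(e262) animals and 3 from the wild-type strain N2. unc-37 encodes a Groucho-family corepressor that the homeodomain protein UNC-4 recruits in these cells. Animals of both genotypes carried a FLAG-tagged form of PAB-1, a protein of poly(A) tails; the unc-4 promoter drove it in DA and VA neurons, and pulling on the tag brought down the RNA. Replicates are labelled as biological, with no mention of separate cultures, so the p-values measure the spread between these arrays.

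Lysozymes are enzymes that cut the peptidoglycan of bacterial cell walls. In C. elegans the lys genes encode lysozymes related to those of protists, and the ilys genes encode lysozymes of the type found in other invertebrates. Saposin-like proteins are small, cysteine-rich proteins that bind lipids, and some of those in C. elegans, called caenopores, open pores in bacterial membranes. Many members of these families are secreted by the intestine, where they digest bacterial food and act in defence against infection. They are not known as markers of motor neurons, and their signal here is that of RNA in a pull-down enriched for, not restricted to, those cells. The labels name A-class motor neurons as the cell type. Among 9 markers of A-class and cholinergic neurons, 7 were higher and 1 lower in unc-37 arrays, led by unc-4 (1067, 1441 and 1001 in unc-37 arrays, against 290.3, 156 and 114 in wild-type arrays). acr-2 rose as well, with a log2 change of 1.05 (adjusted p = 0.00198 by limma). The gene that fell was ace-1, with a log2 change of -0.70 (adjusted p = 0.0161 by limma). The unc-4 promoter also drove the tag, so unc-4 is not a marker independent of the pull-down. Whether the amount of tagged protein differed between genotypes was not tested.

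Median intensities were 50.1 to 51.5 on unc-37 arrays and 51.7 to 52.4 on wild-type arrays, on the linear scale used for all intensities below, and the lowest value on any array was 10.2. The files hold no detection calls, so a dim gene cannot be called absent. The unc-37 transcript itself, at its brightest probe set, was at 477, 547 and 506 in unc-37 arrays, against 371, 349.6 and 360.1 in wild-type arrays (adjusted p = 0.0159 by limma). Its other probe sets had log2 changes of 0.29 and 0.42 and were not called (adjusted p = 0.201 and 0.157 by limma). The 3 probe sets of pab-1 were not called, with adjusted p between 0.357 and 0.470 by limma. They do not separate the tagged form from the animal's own pab-1, so they do not measure the tag. Of 14 pan-neuronal markers, 8 were higher and none lower in unc-37 arrays, with a median log2 change of 0.63. unc-13 and rab-3 had the smallest p among them, with log2 changes of 1.02 and 0.90 (adjusted p = 0.00173 and 0.00667 by limma). Their probe sets are of kinds (_x_at and _s_at) that can bind more than 1 transcript.

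Among the 34 genes, 5 fell in unc-37 arrays and 1 rose, at a Benjamini-Hochberg adjusted p below 0.05 in limma. The falls were lys-7, lys-1, spp-15, spp-31 and spp-18, and the rise was spp-1. The 5 falls are 14.7% of the 34 genes, against 2.81% of all genes called lower, and the single rise is 2.94%, against 3.94% of all genes called higher. In either direction 17.6% were called, against 6.75% of all genes. These shares of all genes, 2.81% lower and 3.94% higher, are the background for the calls of each family and list in the text. The median log2 change (unc-37 minus wild type) of the 34 was -0.04 beside -0.01 over all genes. The arrays of the genotypes did not overlap for 9 of the 34, or 26.5%, close to the 26.4% of all genes, and 8 of those 9, or 23.5% of the 34, were lower in unc-37, against 13.7% of all genes. The calls, though not the direction of the changes, depended on single arrays. Without wild-type replicate 2 none of the 34 genes was called, while the changes of lys-7, lys-1, spp-15, spp-31 and spp-18 were -1.09, -0.84, -0.63, -0.60 and -0.53 and calls over all genes dropped to 2.95%. Without wild-type replicate 1 or unc-37 replicate 1 only spp-31 was, and without unc-37 replicate 3 spp-31 and spp-1 were.

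**Figure D1:**
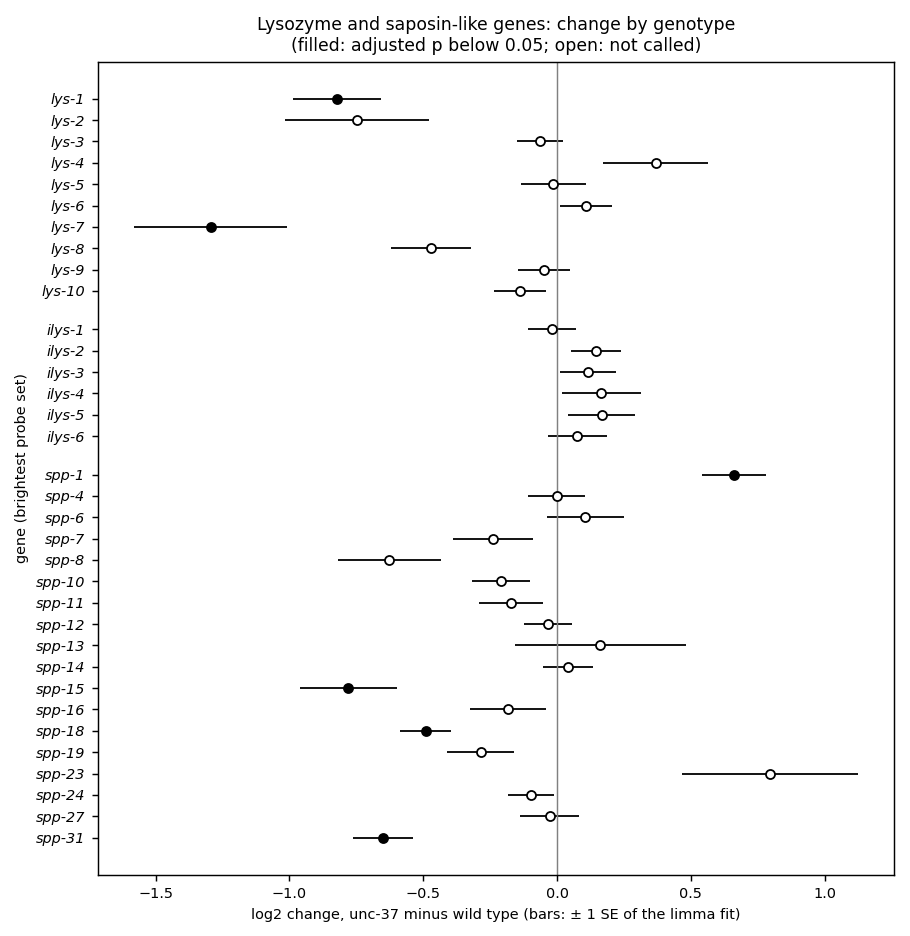
Log2 change (unc-37 minus wild type) of each of the 34 genes at its brightest probe set, with bars of 1 SE of the limma fit and filled points for an adjusted p below 0.05. The filled points are lys-1, lys-7, spp-15, spp-18 and spp-31 below 0 and spp-1 above it, and the 6 ilys genes lie between -0.02 and 0.17.

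Of the 10 lys genes, 2 fell, none rose and 8 were not called. lys-7, a lysozyme gene of the intestine that is induced by bacterial infection and regulated by the insulin pathway, had the largest fall among all 34 genes. Its intensity was 224, 256 and 128 in unc-37 arrays, against 497, 631 and 346 in wild-type arrays. Every unc-37 array was below every wild-type array, and unc-37 replicate 3 was the lowest. The log2 change was -1.29 ± 0.29 (SE, n = 3 per group here and throughout, except where an array was left out), or 0.408 times the wild-type level (adjusted p = 0.0349, limma). lys-1, another intestinal lysozyme gene induced by infection, read 1043, 1342 and 876 in unc-37 arrays, against 2186, 1848 and 1678 in wild-type arrays. These groups did not overlap either. The change was -0.82 ± 0.17, or 0.566 times wild type (adjusted p = 0.0247). Both calls ended when replicate 1 or 3 of unc-37 or replicate 1 or 2 of wild type was left out, at adjusted p of 0.0523 to 0.0959 for lys-1 and 0.0552 to 0.122 for lys-7, and the change stayed below 0 each time. The probe set of lys-7, like those of lys-2 and lys-4, is of the kind (_s_at) that can bind more than 1 transcript.

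lys-2 and lys-8 also read lower on every unc-37 array than on any wild-type array, and neither was called. lys-2 was at 827, 1015 and 453 in unc-37 arrays, against 1416, 1205 and 1058 in wild-type arrays. The unc-37 arrays were spread widely, with an SD of 0.60 on the log2 scale against 0.21 in wild type. Its log2 change of -0.75 ± 0.27 had an adjusted p of 0.156. lys-8, which depends on the DBL-1 signalling pathway of the TGF-beta type, was at 715, 681 and 501 in unc-37 arrays, against 844, 974 and 792 in wild-type arrays (-0.47 ± 0.15, adjusted p = 0.113). unc-37 replicate 3 was again the lowest array for both genes.

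The other 6 lys genes had log2 changes from -0.14 to 0.37. lys-4 had the highest, and its groups overlapped (487, 786 and 582 in unc-37 arrays, against 552, 497 and 378 in wild-type arrays, adjusted p = 0.338). lys-3, lys-5, lys-6, lys-9 and lys-10 were dim, all below the median of 51.8 over all probe sets, with changes from -0.14 to 0.11. By the order of protein-coding genes in RefSeq assembly WBcel235, lys-1, lys-2 and lys-3 lie next to one another on chromosome V, and lys-4, lys-5 and lys-6 on chromosome IV. In the first run the changes were -0.82, -0.75 and -0.06, and in the second 0.37, -0.01 and 0.11. Of these 6 genes, lys-1 was called.

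None of the 6 ilys genes was called in either direction by limma, and none had an unadjusted p below 0.05. ilys-5 was at 2209.8, 2459 and 2187 in unc-37 arrays, against 1812, 1909 and 2434 in wild-type arrays (0.17 ± 0.13, adjusted p = 0.516). The wild-type arrays were the more scattered, with replicate 3 among the unc-37 values. ilys-4 was at 125, 126 and 89.0 in unc-37 arrays, against 90.7, 108 and 101 in wild-type arrays (adjusted p = 0.593). ilys-3, a lysozyme gene of pharynx and intestine that acts against Gram-positive bacteria, was dim, at 40.4, 36.3 and 35.6 in unc-37 arrays and 34.3, 31.6 and 38 in wild-type arrays (0.12 ± 0.10, adjusted p = 0.593). ilys-1, ilys-2 and ilys-6 were also dim, with changes of -0.02, 0.15 and 0.07. ilys-3, ilys-2 and ilys-1 are neighbours on chromosome IV.

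Of the 18 spp genes, 3 fell, 1 rose and 14 were not called. spp-31 was at 76.1, 69.6 and 62.3 in unc-37 arrays, against 97.5, 116 and 113 in wild-type arrays. The groups did not overlap, and the log2 change was -0.65 ± 0.11, or 0.636 times wild type (adjusted p = 0.0136, limma). It was the most stable of the called genes to the loss of an array, called in 5 of 6 such fits and at adjusted p = 0.0611 without wild-type replicate 2.

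spp-18 was at 1333, 1489 and 1308 in unc-37 arrays, against 2070.1, 1839 and 1893 in wild-type arrays. Both groups were tight, with SDs of 0.10 and 0.09 on the log2 scale, and they did not overlap. The change was small, at -0.49 ± 0.10 or 0.711 times wild type (adjusted p = 0.0216), and was called in 2 of 6 fits with an array left out. spp-15 was at 58.5, 67.3 and 56.6 in unc-37 arrays, against 114.5, 127 and 77.2 in wild-type arrays (-0.78 ± 0.18, adjusted p = 0.0412). Here the wild-type arrays varied more than the unc-37 arrays, with wild-type replicate 3 nearest to them. The call was kept in 1 of 6 fits with an array left out, that without wild-type replicate 3.

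spp-1, which encodes a caenopore of the intestine and is a target of the insulin pathway's transcription factor DAF-16, was the gene that rose. Its brightest probe set was at 1767, 1339.7 and 1630.4 in unc-37 arrays, against 955, 968 and 1057 in wild-type arrays. No unc-37 array fell within the wild-type range. The log2 change was 0.66 ± 0.12, or 1.58-fold (adjusted p = 0.0157). A second, dim probe set was not called: it read 62.1, 56.9 and 61.3 in unc-37 arrays, against 65.1, 59.7 and 59.0 in wild-type arrays (-0.03 ± 0.09, adjusted p = 0.903). The probe set that rose is an _s_at probe set, so its change may not belong to spp-1 alone. Fitted as the mean of both probe sets, spp-1 changed by 0.32 (adjusted p = 0.0901) and was not called.

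spp-8 and spp-10 lie on chromosome IV with 1 protein-coding gene between them. spp-8 was at 520.4, 500.1 and 304 in unc-37 arrays, against 667, 696 and 627 in wild-type arrays (-0.63 ± 0.19, adjusted p = 0.104). All unc-37 arrays were below the wild-type arrays, with replicate 3 far below the other two. Its dimmer probe set overlapped between genotypes, with a change of -0.41 (adjusted p = 0.477). spp-10, whose product holds several saposin domains as does the human lysosomal protein prosaposin, was at 1486, 1468 and 1236 in unc-37 arrays, against 1478, 1718 and 1636 in wild-type arrays (-0.21 ± 0.11, adjusted p = 0.329). Its other probe sets read lower in unc-37 too, by -0.27 (adjusted p = 0.355) and -0.38 (adjusted p = 0.12), and for the last of these the groups did not overlap.

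spp-23, singled out after its values were seen, had the highest log2 change of the 34 genes and was not called. It was at 824, 522 and 633 in unc-37 arrays, against 280.0, 279 and 666 in wild-type arrays. Wild-type replicate 3 lay within the unc-37 range and apart from the other wild-type arrays. The change was 0.80 ± 0.33 (adjusted p = 0.215), and without wild-type replicate 3 it was 1.21 ± 0.18 (adjusted p = 0.00916).

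The remaining 11 spp genes without a call had log2 changes between -0.28 and 0.16. spp-4 and spp-14 were bright and nearly level: spp-4 was at 1089, 883 and 951 in unc-37 arrays and 946, 1038 and 936 in wild-type arrays (-0.0017 ± 0.11), and spp-14 at 517, 494 and 446 in unc-37 arrays and 479.7, 480.1 and 455 in wild-type arrays (0.04 ± 0.09). In both genes the unc-37 arrays spanned the wild-type range. spp-12, a gene of defence expressed in neurons of the pharynx, was dim and level (-0.04 ± 0.09, adjusted p = 0.872). spp-13 was scattered in both groups, from 53.8 to 84.2 in unc-37 arrays and from 36.4 to 95.4 in wild-type arrays.

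**Figure D2:**
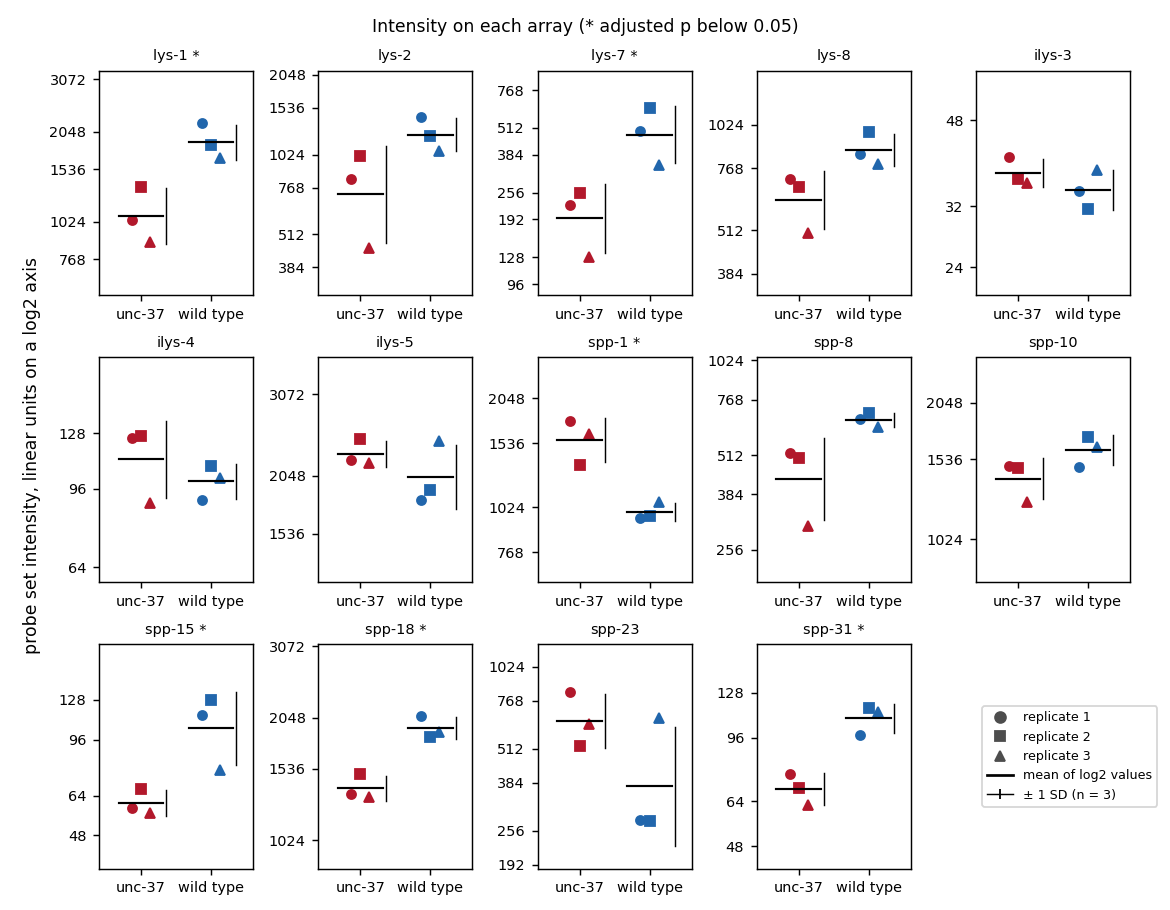
Intensity on each array, in linear units on a log2 axis, for the called genes, those without overlap and a change of at least 0.5, the 3 brightest of each family, and spp-23, with unc-37 left of wild type, marker shapes for replicates, a line at the mean of the log2 values and a bar of 1 SD (n = 3). lys-1, lys-7, spp-15, spp-18 and spp-31 lie lower on all unc-37 arrays, spp-1 lies higher, and the ilys genes overlap.

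Further family members shared a probe set with another gene and were not counted among the 34. The probe set of spp-5, whose product is a caenopore known to kill bacteria, is shared with T08A9.13. It read 1596, 1556 and 1356 in unc-37 arrays, against 1483, 1553 and 1487 in wild-type arrays (-0.01 ± 0.10, adjusted p = 0.973). That of spp-2 and spp-3 was level as well (-0.0033 ± 0.10, adjusted p = 0.991). The probe sets shared by spp-9 and spp-21 (-0.35 ± 0.11, adjusted p = 0.117) and by spp-22 and ZK867.2 (0.37 ± 0.10, adjusted p = 0.0662) did not overlap between genotypes and were not called. spp-4, spp-5, spp-2, spp-3 and the dim spp-6 lie in 1 run on chromosome X, and no probe set of that run was called.

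Of the 34 genes, 4 had several probe sets, and these differed in what they showed. All 3 probe sets of ilys-5 were above 0 and uncalled (0.13 to 0.23), and all 3 of spp-10 and both of spp-8 were below 0 and uncalled. All 3 of ilys-5 (_x_at or _s_at) and the brightest of spp-8 and spp-10 (_s_at) can bind more than 1 transcript. spp-1 was the gene whose probe sets disagreed in call. The other 30 genes, including the 5 that fell, rest on 1 probe set each.

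**Figure D3:**
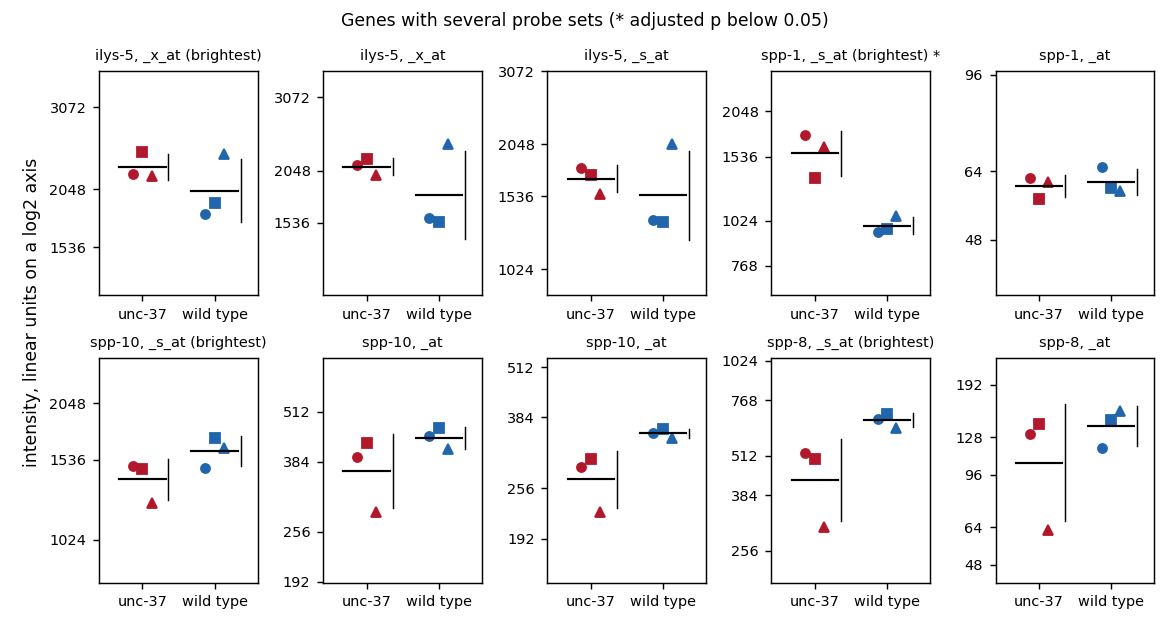
Intensity on each array, in linear units on a log2 axis, for every probe set of the 4 genes with several, unc-37 left of wild type, with replicates by marker shape, a line at the mean of the log2 values and a bar of 1 SD (n = 3). The bright spp-1 probe set separates the genotypes (1339.7 to 1767 in unc-37, 955 to 1057 in wild type) and the dim one does not.

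All 6 calls were among the 21 genes at or above the median level of all probe sets. Among these 21, 14 log2 changes were below 0 and the median was -0.21, beside 0.02 over all genes at or above that level. Of them, 23.8% fell, against 4.73% of all genes at that level, and 28.6% were called in either direction, against 11.6%. The 13 dimmer genes ranged in intensity from 10.4 to 41.0 on single arrays and changed by -0.17 to 0.15, with no call, at unadjusted p of 0.05 or above.

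Of 19 intestine markers, 1 fell, ifc-2, an intermediate filament gene of the gut (-0.56 ± 0.11, adjusted p = 0.0195), and none rose, against 2.81% and 3.94% of all genes. Of the 19, 3 had an unadjusted p below 0.05 and 16 had a log2 change below 0, with a median of -0.20. Their summed intensity was 14084, 14623 and 10542 in unc-37 arrays, against 14328.5, 15305 and 16352 in wild-type arrays, so that unc-37 replicate 3 was the lowest and unc-37 replicate 2 lay within the wild-type range. The esterase gene ges-1 was at 132, 124 and 96.5 in unc-37 arrays and 131.8, 143 and 113 in wild-type arrays, and the GATA factor gene elt-2 at 107, 113 and 101 in unc-37 arrays and 113, 125 and 107 in wild-type arrays. Neither was called (adjusted p = 0.639 and 0.605). In such bulk RNA, a smaller share of intestinal RNA carried along in the pull-down and lower levels of these transcripts in the intestine cannot be told apart.

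Relative to the mean log2 level of the 19 intestine markers, a scaling chosen after the values were seen, lys-7 changed by -1.09, lys-1 by -0.62, spp-15 by -0.58, spp-31 by -0.45 and spp-18 by -0.29, and spp-1 by 0.86. The calls of spp-31 (adjusted p = 0.0857) and spp-18 (0.333) ended under it, while lys-2 gained one as lower (-0.54, adjusted p = 0.0272) and lys-4 and spp-23 gained one as higher. The 3 genes then called higher are 8.82% of the 34, against 11.4% of all genes, and the 4 called lower are 11.8%, against 2.01%. spp-10 came to -0.0045. SEs became nearly alike under this scaling, at 0.18 for lys-2 and 0.19 for spp-23, against 0.27 and 0.33 unscaled. The calls under it therefore do not reflect each gene's own spread. lys-2 gained its call though its change was smaller than the unscaled -0.75. The scaling moves every gene alike, by 0.20. That size depends on the markers taken: their own changes ran from -0.56 for ifc-2 to 0.20 for haf-9. They include dim genes such as vit-2, at 14.3 to 16.4 in unc-37 arrays and 16.9 to 18.6 in wild-type arrays. Whether the remaining changes exceed that of intestinal RNA was not tested. Scaled instead to the mean of the 14 pan-neuronal markers, every gene shifts by -0.54. Of the 34 genes, 30 or 88.2% were then called lower, close to the 83.7% of all genes, while spp-1 was at 0.12 (adjusted p = 0.399).

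Of 12 pharynx markers, phat-5, phat-4 and phat-2, genes of secreted proteins of the pharyngeal glands, fell and none rose, with a median of -0.41. phat-5 was at 153, 187 and 136 in unc-37 arrays, against 396, 666 and 349 in wild-type arrays (-1.52 ± 0.23, adjusted p = 0.00813). phat-4 was at 172, 166 and 128 in unc-37 arrays, against 316, 477 and 270.2 in wild-type arrays (-1.16 ± 0.21, adjusted p = 0.0159). The probe sets of phat-5 and phat-2 (_s_at) can bind more than 1 transcript, so these changes may not belong to 1 gene each. The summed pharynx level was 2869 to 3765 in unc-37 arrays, below the 4219.7 to 4939 of wild-type arrays. The pharynx markers that are not phat genes were not called by limma. Among them, myo-1, myo-2, ceh-22 and pha-4 were nearly level, with log2 changes of -0.12, -0.09, -0.0019 and 0.02. The others, hlh-6, tnc-2 and tnt-4, changed by -0.27, -0.39 and -0.52. Neither of the coelomocyte markers unc-122 and cup-4 was called by limma, 1 of them with an unadjusted p below 0.05 (median -0.25; summed level 114 to 165 in unc-37 arrays, 168 to 174 in wild-type arrays). No call was made among 11 hypodermis, 10 body wall muscle and 8 germline markers, with medians of -0.12, 0.08 and -0.02; 3 of the hypodermis markers and none of the others had an unadjusted p below 0.05. The part of any of these tissues in the changes of the lysozyme and saposin-like genes was not tested.

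**Figure D4:**
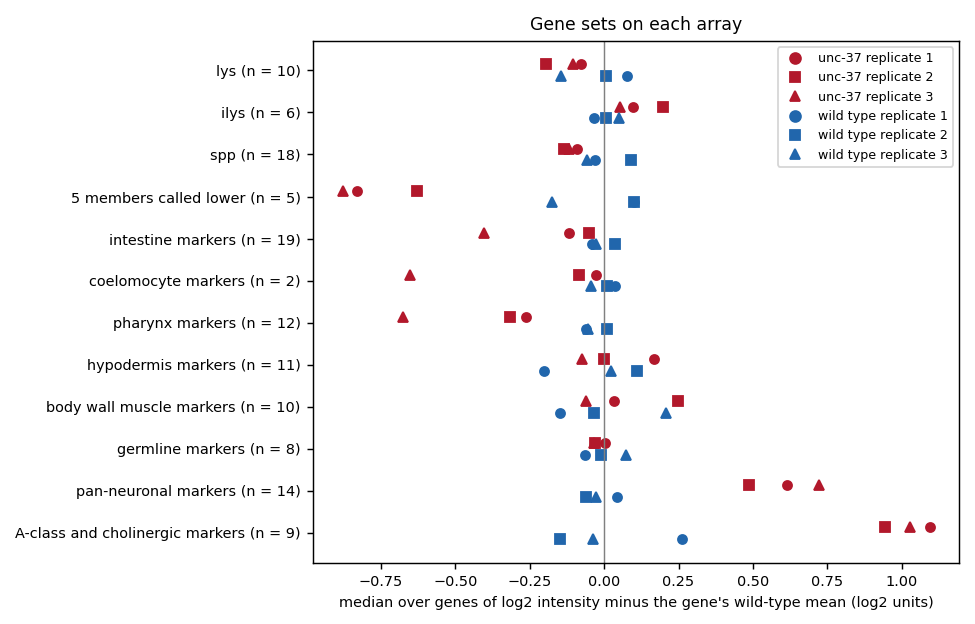
Median over genes of the log2 intensity minus each gene's wild-type mean, for each array, with unc-37 drawn above wild type in each row and replicates by marker shape. The 5 genes called lower, shown as a description of the genes so chosen, lie at -0.63 to -0.88 on unc-37 arrays, the intestine markers at -0.05 to -0.40 with replicate 3 lowest, and the pan-neuronal markers at 0.49 to 0.72.

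Genes that act with lysozymes and saposin-like proteins changed in part. Saposins assist enzymes that break down sphingolipids, and of 7 such hydrolase genes, 2 fell and 1 rose, against 2.81% and 3.94% of all genes. The ceramidase genes fell: asah-1 was at 283, 259 and 213 in unc-37 arrays, against 407, 419 and 385 in wild-type arrays (-0.69 ± 0.12, adjusted p = 0.0131), and asah-2 changed by -0.75 ± 0.18 (adjusted p = 0.0449). The hexosaminidase gene hex-1 was at 977, 657 and 928 in unc-37 arrays, against 583, 403 and 519 in wild-type arrays (0.76 ± 0.18, adjusted p = 0.0480). The probe set of hex-1 is an _s_at probe set, so its change may not belong to hex-1 alone. None of 19 lysosomal genes was called by limma, 3 with an unadjusted p below 0.05, and 17 were below 0 with a median of -0.18.

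Of other secreted defence genes, 1 of 5 abf genes, which encode defensin-like antibacterial factors, fell: abf-4 was at 19.8, 17.8 and 19.9 in unc-37 arrays, against 48.9, 48.1 and 28.3 in wild-type arrays (-1.08 ± 0.20, adjusted p = 0.0174). Of 8 caenacin genes, which encode antimicrobial peptides of the epidermis, cnc-4 fell (-1.06 ± 0.18, adjusted p = 0.0121) and none rose. Of 9 antimicrobial nlp genes of the epidermis, nlp-31 (1.05 ± 0.20, adjusted p = 0.0200) and nlp-27 (0.97 ± 0.19, adjusted p = 0.0235) rose and nlp-33 (-0.92 ± 0.15, adjusted p = 0.00985) fell. The probe sets of nlp-31 and nlp-27 (_x_at) and of nlp-33 (_s_at) can bind more than 1 transcript, so these changes may not be separate or belong to 1 gene each. None of 13 fip and fipr genes or of 4 thaumatin-like thn genes was called by limma, nor had any an unadjusted p below 0.05. Medians of these 5 lists lay between -0.12 and 0.05.

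Digestive proteases of the gut changed in single members. Of 15 aspartyl protease genes, asp-12 rose (0.37 ± 0.09, adjusted p = 0.0483) and none fell, with a median of -0.15 and 11 below 0. Of 8 cathepsin B-like genes, cpr-3 fell (-0.85 ± 0.13, adjusted p = 0.00928) and none rose, with a median of 0.01. The probe set of cpr-3 is an _x_at probe set, so its change may not belong to cpr-3 alone.

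Genes of pathways linked to lysozyme and caenopore expression showed few calls. Whether each listed gene regulates these families was not tested, and their levels are those in the pull-down, not in the intestine alone. Of 14 genes of p38 and other infection signalling and 12 of the insulin pathway and intestinal transcription, none was called by limma, with 2 in each list at an unadjusted p below 0.05 and medians of 0.03 and -0.05. Of 10 genes of the DBL-1 pathway, lon-2, a glypican gene that restrains the pathway, rose: it was at 426, 369 and 449 in unc-37 arrays, against 291, 265 and 311 in wild-type arrays (0.52 ± 0.11, adjusted p = 0.0281). None of this list fell, its median was 0.04, and 2 of its genes had an unadjusted p below 0.05, lon-2 and dbl-1. dbl-1 was at 123, 105 and 131 in unc-37 arrays, against 70.5, 62.8 and 97.0 in wild-type arrays. Its groups did not overlap, and it was not called (0.66 ± 0.17, adjusted p = 0.0547, limma). The probe set of dbl-1 is an _s_at probe set, so its change may not belong to dbl-1 alone.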

How the data were processed

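The deposited values are intensities per probe set, on a linear scale as their size shows, for which the submitters' processing notes name RMA as the authors' tool; RMA corrects background, equalises array distributions and summarises probes. Labels describe growth at 25 °C and labelling after 2 rounds of in vitro transcription. Values were log2 transformed, with no filter, and 22548 probe sets were fitted with lmFit and eBayes of limma 3.58.1 (R 4.3.3), two-sided, Benjamini-Hochberg adjusted over all of them and called below 0.05. For a single gene, exact permutation of these 6 arrays cannot reach a p below 0.1. In simulated data for this comparison 35.8% of true 1.5-fold changes and 91% of 2-fold changes were recovered, and 9 of 160 calls were false. That simulation changed 200 of 22548 probe sets and drew independent noise for each array, so its rates may not hold for the real arrays. Of all probe sets, 20766 name 1 gene, 887 several and 895 none. Genes, members and the 20 other lists were chosen with earlier results of these data known. Array values are given for called members, for those without overlap and a change of at least 0.5, and for the 3 brightest of each family. From other lists, called genes with the 2 smallest p per direction are named, some with array values. phat-2, the pharynx markers that are not phat genes, ges-1, elt-2, haf-9, vit-2, unc-122, cup-4 and dbl-1 were added after. So were lys-4, spp-4, spp-13, spp-14 and spp-23. Promoter and protein sequences were not analysed here. Figures used matplotlib 3.10.9 (Python 3.11.15).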

Additional observations from a re-analysis of the deposited data

How the results depend on the processing

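The same 6 genes were called with array weights, an intensity-dependent prior variance, dim probe sets left out, quantile normalization repeated, arrays centred on medians, or a threshold of 0.1. With single arrays left out, 0 to 5 of the 34 genes were called lower and 0 to 2 higher, 505 to 1340 genes were called in all, and the median of the 34 lay between -0.10 and -0.03. The count of all genes was 1767 with array weights and 1864 at an adjusted p below 0.1, against 1157. No gene was called higher when probe sets of a gene were averaged (0) or without _x_at and _s_at probe sets (0), where the log2 change of spp-1 was -0.028 from its other probe set. With arrays scaled to pan-neuronal markers, 0 genes were called higher, 30 lower and 14548 of all genes, the median was -0.59 beside -0.56 over all genes, and ilys-3, ilys-4 and ilys-5 came to -0.43, -0.38 and -0.38, since every gene moves by -0.54 under it. With arrays scaled to intestine markers, added after seeing the data, 3 were called higher (spp-1, lys-4 and spp-23) and 4 lower, 2302 of all genes were called, and the median was 0.16 beside 0.19. SEs were nearly alike between genes there, so those calls do not reflect each gene's own spread. The 31 calls among 203 genes of the other lists, an alternative count also added after, became 168 with pan-neuronal scaling and 15 to 28 with arrays left out. With the replicate number as a replicate block, 4 were called lower and 1 higher, and spp-18 lost its call (adjusted p = 0.0690). Over all probe sets, deviations of same-numbered arrays correlated at -0.19, -0.14 and -0.10, so no pairing by number showed there. Single genes went either way under the block. The SE of lys-7 was 0.11, against 0.29 without it, and that of spp-31 was 0.13, against 0.11. Whether the numbers pair the arrays is thus not settled. Requiring a fold of at least 1.5 also left out spp-18. The cause of these differences was not tested. Signal near background limits what can be seen in the 13 dim genes.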
